A study of Homo sapiens with 4 samples.

Results

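Hep3B is a human hepatocellular carcinoma cell line, and UNC50 is a membrane protein of the Golgi apparatus. The study lowered UNC50 in these cells to learn what the gene does in liver cancer. It measured total RNA on 4 Agilent 1-colour arrays, on which each spot carries a 60-base probe for 1 transcript. Described here is the array of cells carrying the hairpin shR-749 against that of cells carrying the mock hairpin shR-MOCK, which are 2 of the 4 arrays. They were chosen by their labels. In all 4 groups the hairpin plasmid was introduced into Hep3B cells, the cells were selected with puromycin at 1 ug/ml, and 0.2 ug of RNA was labelled with Cy3. Per the labels, shR-749 targets the UNC50 mRNA at position 749, while shR-467 and shR-554 target it at positions 467 and 554. The other 2 hairpin arrays served to sort the changes and to set values beside those of shR-749. Whether a culture was 1 clone or a pool of cells is not given in the sources used here.

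Each group had 1 array, so no difference below has a replicate or a test, and differences between cultures cannot be told apart from effects of a hairpin. A short hairpin RNA is cut by the cell into a small interfering RNA, which guides the breakdown of mRNAs that it pairs with. Hairpins against one gene share the target and not the sequence. A change given by all of them is therefore read differently from a change given by 1 of them. Here all 3 hairpins were set against the same mock array, so an unusual value on that array enters all 3 differences.

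Of 42405 probes other than controls, 27674 were well above background on both arrays, and these stood for 22908 of 34809 genes. The share of spots well above background was 67.65% on the lowest array and 73.59% on the highest, and none was saturated. Signals were brought to the 75th percentile of the mock array (1120) and are called scaled signals below. Differences are log2 values, shR-749 minus mock, and a gene is called raised or lowered where it differed by at least 1.5-fold (0.585), the fold that the study's methods use. For a gene's difference the scanner software's own error was 0.206 at the median. Among probes printed in 10 spots, the SD over the spots was 0.0531 on the mock array and 0.0474 on the shR-749 array at the median. Where 4 scaled signals follow each other without names, they are those of the mock, shR-749, shR-467 and shR-554 arrays in that order. The errors given cover the array surface and not the culture. The 8 spike-in RNAs that were well above background on every array differed from the mock by 0.06 at the median with shR-749. With shR-467 and shR-554 they differed by 0.02 and -0.17. All 11 markers of hepatocyte and hepatoma identity were well above background on both arrays, led by albumin (ALB) at scaled signals of 244340 under mock and 293810 under shR-749. Of the markers of other cell types on the array, 4 of 6 for blood, 2 of 7 for fibroblasts, 3 of 6 for endothelium and 2 of 6 for squamous epithelium were.

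UNC50 was low with shR-749. Its scaled signal was 5010 under the mock hairpin and 939 under shR-749, beside 1202.5 (shR-467) and 687 (shR-554). The shR-749 array thus held 18.7% of the mock signal, a difference of -2.42 with a scanner error of 0.20, against -2.06 with shR-467 and -2.87 with shR-554. The 1 probe for UNC50 lies on chromosome 2 from 99227237 to 99227296 (hg19, plus strand), at transcript positions 431 to 490 of the array annotation. The labelled position of shR-749 lies 259 bases past its end, while that of shR-467 falls inside it. The probe is shown for that reason, with capitals from position 467 of the transcript on, counting the probe's annotated start as its first base.
UNC50 probe: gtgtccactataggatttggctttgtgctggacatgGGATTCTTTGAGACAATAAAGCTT

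With shR-749, 1329 genes were raised (5.8% of those compared) and 1440 were lowered (6.29%), of which 380 and 358 passed 2-fold. The other hairpins, over the same probes where well above background, raised 6.79% (shR-467) and 4.64% (shR-554) and lowered 4.21% and 7.96%. Of the genes raised with shR-749, 120 were raised by all 3 hairpins (0.524% of genes), 291 by 1 other hairpin as well, and 624 by shR-749 alone with the other 2 hairpins within 1.5-fold of the mock (2.72%). A further 137 were lowered by another hairpin, and 157 could not be sorted because the signal with another hairpin was not well above background. Of the lowered genes, 121 were shared by all 3 hairpins (0.528%), 527 by 1 other hairpin and 680 were lowered by shR-749 alone (2.97%), while 108 were raised by another hairpin and 4 could not be sorted. The lowered genes shared with 1 other hairpin were in common with shR-554 in 348 cases and with shR-467 in 179. Only 89 raised and 51 lowered genes of those given by shR-749 alone also stood at least 2-fold from each other hairpin. Genes past 1.5-fold were more between shR-749 and each other hairpin than between shR-749 and the mock. Over 21239 genes well above background on all 4 arrays, 2441 differed between shR-749 and the mock, 3612 between shR-749 and shR-467, and 3140 between shR-749 and shR-554.

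**Figure D1:**
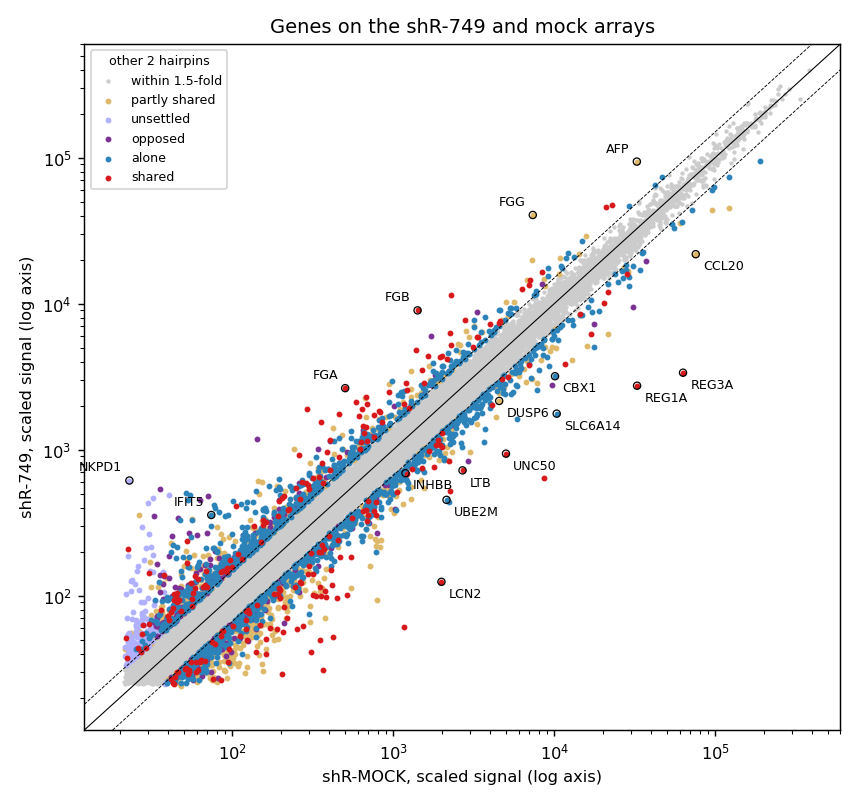
Scaled signal of each of 22908 genes on the mock array (horizontal, log axis) and on the shR-749 array (vertical, log axis), with a solid line at equality and dashed lines at 1.5-fold. Colours give how the other 2 hairpins sorted the gene, and the 3 fibrinogen genes lie above the diagonal while UNC50, REG3A, REG1A and LCN2 lie below it.

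All 3 fibrinogen genes were raised with shR-749. Fibrinogen is the liver's clotting protein, built from 3 chains that neighbouring genes encode. FGB, the beta chain, had a scaled signal of 1414 under the mock hairpin and 8989 under shR-749, beside 2214 (shR-467) and 5414 (shR-554). FGG, the gamma chain, stood at 7352, 40470, 10567 and 15666 in the order mock, shR-749, shR-467 and shR-554. FGA, the alpha chain, stood at 502, 2636, 805 and 1405. All 3 genes thus had their lowest signal on the mock array and their highest on the shR-749 array. The differences with shR-749 were 2.67 (FGB), 2.46 (FGG) and 2.39 (FGA), a 6.356-fold, 5.504-fold and 5.252-fold higher signal. The 3 probes for FGA gave 2.39, 2.48 and 2.86. With shR-467 the differences were 0.65, 0.52 and 0.68, and with shR-554 they were 1.94, 1.09 and 1.49.

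The rest of the coagulation and fibrinolysis list did not follow the fibrinogen genes as a group. Of the list's 29 members compared, the fibrinogen genes included, 6 (20.7%) were raised and 2 (6.9%) lowered. The shares over all genes were 5.8% and 6.29%. The list's median was -0.01, beside a median of -0.03 over all genes. SERPINC1 (antithrombin, the main inhibitor of thrombin) stood at 1709 under mock and 6002 under shR-749, a difference of 1.81, which was 1.75 with shR-467 and -0.66 with shR-554. Prothrombin (F2) and factor X (F10) differed by 0.07 and 0.12.

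Other plasma protein genes were raised with fibrinogen. AFP, the fetal counterpart of albumin and a hepatoma marker, had scaled signals of 32590 under the mock hairpin and 93910 under shR-749, beside 37316 (shR-467) and 66020 (shR-554). Transthyretin (TTR) went from 20850 to 46237, a difference of 1.15, and was raised with both other hairpins. Apolipoprotein A-I (APOA1) went from 22800 to 47575, a difference of 1.06 beside 1.35 with shR-467 and 0.60 with shR-554. Over the acute phase and plasma protein list 6 of 35 members (17.1%) were raised and 5 (14.3%) lowered, with a median of 0.04. The shares over all genes were 5.8% and 6.29%. The lowered members included LCN2 (lipocalin-2, an iron-binding protein of inflamed epithelium) and SAA1 (serum amyloid A).

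Within the 250 bases before the start of a gene, 5 motifs were searched on both strands in 27305 promoters of the RefSeq table (GRCh38.p14). The IL-6 response core CTGGGAA was found in 9.3% of all these promoters, and in those of FGB and FGG but not of FGA. The motif of HNF1 (0.0989% of all promoters), the C/EBP letters TTGCGNAA (0.74%), the TATA box TATAAA (11.1%) and the NF-kB motif (1.73%) were in none of the 3. The promoter of FGB is shown from 120 bases before the start to the base before it (chr4:154562860-154562979, plus strand), as the gene with the largest rise of the 3. Capitals mark the IL-6 response core, and a match is a description of letters and not a site.
FGB promoter: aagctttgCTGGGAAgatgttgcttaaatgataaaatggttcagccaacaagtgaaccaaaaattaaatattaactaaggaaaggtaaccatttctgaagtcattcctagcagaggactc

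The largest falls included several secreted proteins of gut and inflamed epithelium. REG3A, an antibacterial lectin of the REG family, had scaled signals of 63098 under the mock hairpin and 3365 under shR-749, beside 2805.5 (shR-467) and 21230 (shR-554). REG1A stood at 32696, 2740, 6498 and 5236, and REG3G at 1160, 61.1, 102 and 313. For these 3 genes the mock array was the highest of the 4, and the differences with shR-749 were -4.23, -3.58 and -4.25. REG1B, the fourth member compared, was dim and differed by -0.06. LCN2 stood at 1990, 124, 567 and 147, and so held 6.25% of the mock signal with shR-749. ODAM, a secreted protein of tooth-attached epithelium, stood at 8650, 643, 2737 and 1088. CEACAM7, a cell adhesion protein of the colon, was lowered with shR-749 (-3.08) and shR-467 (-2.52) and not with shR-554 (0.05). The other falls among the 12 largest were C4orf7, GPA33, RIBC1, RNF186, SLC6A14 and UNC50 itself.

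Genes shared by all 3 hairpins were ranked by the smallest of their 3 differences. Among the falls RIBC1, REG1A, ZG16B, C4orf7 and UNC50 led, with ZG16B, a secreted lectin, at -2.12, -2.94 and -2.39 with shR-749, shR-467 and shR-554. Among the rises WNT11 (a secreted Wnt ligand), C12orf75, FAM117A, NETO2 and LHX3 led. FAM117A had scaled signals of 1390 under the mock hairpin and 4837 under shR-749, beside 3630 (shR-467) and 3626 (shR-554). WNT11 was much dimmer, at 52.4, 166.5, 155 and 183.

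Chemokines and other NF-kB target genes were the list with the largest share of lowered members apart from the REG family and the genes the study drew from these arrays. NF-kB is the transcription factor that turns on many inflammatory genes, and chemokines are secreted proteins that attract white blood cells. Of 29 members compared, 17 (58.6%) were lowered and 2 (6.9%) raised, with a median of -0.72. Over the 28 members well above background with each other hairpin, 10 were lowered with shR-467 (median -0.33) and 11 with shR-554 (median -0.51). Over all genes 4.21% and 7.96% were lowered with these hairpins. Of the 17, 4 were shared by all 3 hairpins, 12 with 1 other hairpin, and SOD2 was lowered with shR-749 alone. The list was drawn up with earlier results of these arrays known and is not independent evidence of its direction.

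CCL20, which attracts dendritic and T cells, had scaled signals of 75672 under the mock hairpin and 21803 under shR-749, beside 49565 (shR-467) and 50785 (shR-554). CXCL5, a neutrophil chemokine, stood at 74355, 21405, 27406 and 57934. CXCL1, another, stood at 15944, 5104, 5571 and 21150. The shR-749 array was the lowest of the 4 for these 3 genes, and shR-554 lay above the mock for CXCL1. LTB (lymphotoxin beta, a TNF family ligand) stood at 2690, 721, 869 and 951, and so was low with all 3 hairpins. Interleukin-8 (IL8 on the array) was dimmer, at 154 under mock and 30.4 under shR-749, a difference of -2.34 that shrank to -1.13 under normexp. NFKBIA, the inhibitor that NF-kB itself induces, went from 27488 to 16984 (-0.70). CCL2 was seen only as a bound. Its signal was 541 on the mock array and not well above background with shR-749, at least 23.35-fold lower. CXCL12, a chemokine of stromal cells, went the other way, from 241 on the mock array to 1015 with shR-749, with 452 for shR-467 and 169 for shR-554.

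The promoters of this list hold the NF-kB motif more often than the 1.73% of all promoters. The list was drawn up as chemokines and NF-kB targets, so a higher share comes with the choice of its members. It was found in 9 of the 17 lowered members and in 3 of the 8 other members whose promoter is in the table. Thus the motif was frequent in the list whether or not its members were lowered. Among all named genes lowered with shR-749, 3.16% of promoters held it (21 of 665), and among those raised 2.14% (13 of 607). The 9 lowered members of this list are among the 21, so that share also holds the choice of the list. The match is shown in capitals in 40 bases for the 3 bright chemokines above (GRCh38.p14), where CCL20 has it on the opposite strand. The windows are chr4:73869299-73869338 (plus strand) for CXCL1, chr4:73998744-73998783 (minus strand) for CXCL5, and chr2:227813748-227813787 (plus strand) for CCL20.
CXCL1: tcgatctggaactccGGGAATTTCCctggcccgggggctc
CXCL5: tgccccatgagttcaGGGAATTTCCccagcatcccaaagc
CCL20: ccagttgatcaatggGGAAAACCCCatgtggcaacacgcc

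A set of bright genes was low with shR-749 and within 1.5-fold of the mock with both other hairpins. UBE2M, the enzyme that attaches NEDD8 to cullins, had scaled signals of 2140 under the mock hairpin and 453 under shR-749, beside 2210 (shR-467) and 2184 (shR-554). The array's probe for its processed copy UBE2MP1 gave 2210, 438, 2302 and 2208. Transcripts of such near-identical copies can bind to each other's probes, so which of the pair was measured is uncertain. CBX1, a heterochromatin protein, stood at 10108, 3183, 8069 and 9990, a difference of -1.67. Further probes under that name gave -1.73 and -1.75, but the annotation places both on chromosome X and the first on chromosome 17, so that what they measured is uncertain. The probe at -1.75 also differed by -0.485 with shR-467 and -0.516 with shR-554. SLC6A14, an amino acid transporter, stood at 10349, 1764, 7952 and 8012. NCOA7 and C4orf46 differed by -1.62 and -1.69, while a second probe of C4orf46 gave -0.63. With shR-467 the brighter C4orf46 probe differed by -0.53, close to the threshold.

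Further genes of this kind, MBTPS1 and TMEM9, were picked after their values were seen. MBTPS1 is the site-1 protease of the Golgi, which cuts and thereby activates the SREBP factors of cholesterol synthesis and the stress sensor ATF6. Its brighter probe (chromosome 16, 84087686 to 84087745, hg19, minus strand) had scaled signals of 2660 under the mock hairpin and 1041 under shR-749, beside 3161 (shR-467) and 2699 (shR-554). Its other probe stood at 1894, 709, 1984.5 and 2061.5. Both probes put shR-749 lowest, at differences of -1.35 and -1.42. TMEM9, a lysosomal membrane protein, stood at 3726, 1394, 3722 and 3716.5 on its 10-spot probe. Its other probe differed by -1.09 with shR-749 but by 0.62 with shR-467 and 0.56 with shR-554, and so was not near the mock with those. For reference, bases 16 to 45 of the probes that gave these values are shown without capitals.
UBE2M: gtccttacgataaactccataatttatggc
UBE2MP1: gctacataggctccacctacttcgagcgct
CBX1: acgttgtaaaattcttttaggcatgtgtta
MBTPS1: caaacaaatgatacaaccctgaccaagcta
TMEM9: gggaagagggatgtggtctctgatctctgt

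**Figure D2:**
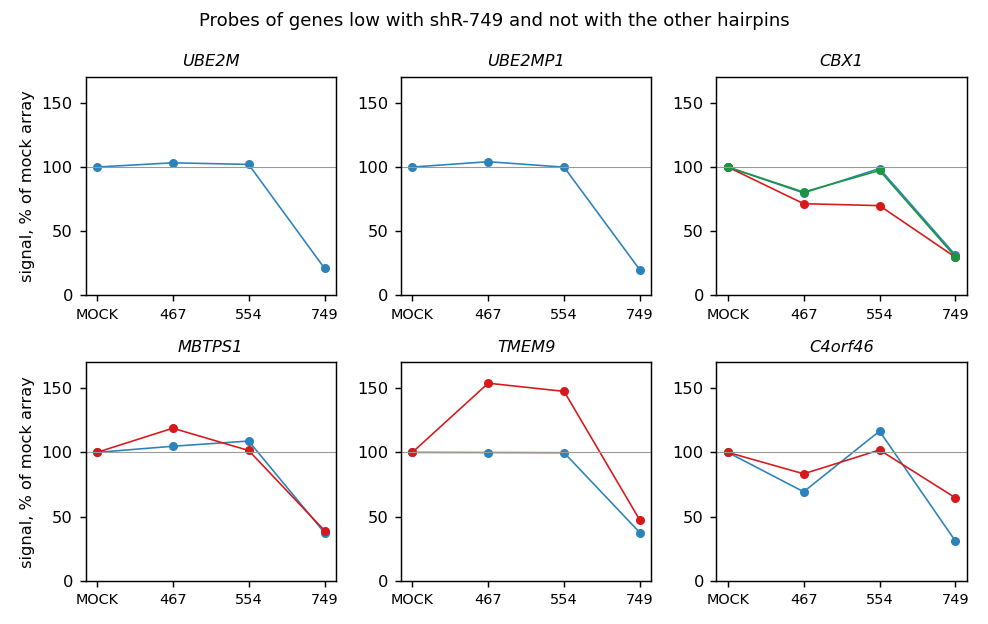
Signal of each kept probe of 6 genes as a percentage of its mock signal (vertical, from 0) on the mock array and the 3 hairpin arrays (horizontal). Each colour is 1 probe listed under the gene's name and lines only join its 4 values, and every probe is lowest with shR-749.

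Genes of cholesterol and fatty acid synthesis, most of them targets of the SREBP factors, set shR-749 apart from the other 2 hairpins. Of 41 members compared, 1 was raised and 1 lowered with shR-749, with a median of -0.07. With shR-467, 20 were raised and 0 lowered (median 0.57), and with shR-554, 7 were raised and 0 lowered (median 0.41). Over all genes 6.79% were raised with shR-467 and 4.64% with shR-554. Set directly against shR-467, which leaves out the mock array, 27 of the 41 were at least 1.5-fold lower with shR-749 and 0 higher, with a median of -0.73 beside -0.07 over all genes. Against shR-554, 18 were lower and 1 higher, with a median of -0.41 beside -0.03. The share of all genes past 1.5-fold lower was 10.9% and 6.65% in these comparisons. No test of the difference between hairpins was possible.

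FASN, the fatty acid synthase, had scaled signals of 20547 under the mock hairpin and 18584 under shR-749, beside 44546 (shR-467) and 33942 (shR-554). It was thus near the mock with shR-749 and above it with both other hairpins. ELOVL6, a fatty acid elongase, was the lowered member, at 1500, 731, 2199 and 2167.5. ME1, which makes NADPH for fatty acid synthesis, was the raised one, at 953 under mock and 1531 under shR-749.

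Some genes of the unfolded protein and integrated stress responses were raised with shR-749. These are the programmes by which a cell answers misfolded protein in the endoplasmic reticulum and a block of translation. Of 35 members compared, 9 (25.7%, beside 5.8% of all genes) were raised and 1 lowered, with a median of 0.27, and 8 of the 9 were raised by shR-749 alone. With shR-467 the list had 0 raised and 1 lowered, and with shR-554 0 raised and 2 lowered. HSPA5, the main chaperone of the endoplasmic reticulum, had scaled signals of 1125 under the mock hairpin and 2334 under shR-749, beside 1294 (shR-467) and 1679 (shR-554). With shR-554 its difference of 0.58 lay just under the threshold. It passed under median scaling (0.61) but not under quantile normalization (0.545). Its place among the genes of shR-749 alone thus depends on the scaling. DDIT3, the stress factor CHOP, stood at 652, 1298, 561 and 529. HERPUD1, which takes part in the removal of misfolded proteins, stood at 12149, 22386, 16602 and 16663. ATF3 (0.78), CHAC1 (0.90), EIF2AK3 (0.70), STC2 (0.70) and PPP1R15A (0.59) were also raised. SDF2L1, a cofactor of that chaperone, was the lowered member, from 95200 to 60460 (-0.66).

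Of the cell cycle lists, that of the step from G1 to S phase held more lowered members than the 6.29% of all genes. Of 27 cyclins, kinases and inhibitors of that step, 10 were lowered and 1 (E2F5) raised, with a median of -0.43 beside -0.14 with shR-467 and -0.07 with shR-554. Of the 10, 7 were lowered with shR-749 alone. CDK2, the kinase of that step, had scaled signals of 332 under the mock hairpin and 148 under shR-749, beside 301 (shR-467) and 237 (shR-554). CCND3, a D-type cyclin, stood at 992, 500.5, 816 and 842, and TFDP1, the partner of the E2F factors, at 13098, 7120, 12653 and 12847. The list did not move as activators alone, since the kinase inhibitors CDKN2C (-0.91), CDKN1C (-0.81) and CDKN2D (-0.68) were among the lowered. Of 49 mitosis genes 4 (8.16%) were lowered and 0 raised, a share near that of all genes, although 47 lay below the mock, with a median of -0.32. Of 44 DNA replication genes 2 (4.55%) were lowered and 0 raised, with a median of -0.15.

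Genes that ERK signalling induces included DUSP6, a phosphatase that switches ERK off and is induced by it. DUSP6 had scaled signals of 4545 under the mock hairpin and 2156 under shR-749, beside 3565 (shR-467) and 2075 (shR-554), a difference of -1.08. It was thus near the level of shR-554 and below that of shR-467. Of 24 members of the list, 7 (29.2%) were lowered and 1 (4.17%) raised with shR-749, beside 6.29% and 5.8% of all genes. The median was -0.11. ETV4 (-1.28), IER3 (-1.13) and SPRY4 (-1.05) were lowered, while the phosphatase DUSP5 went from 43.8 to 115 (1.39). EGFR itself differed by 0.14 on its brightest probe.

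The study drew a set of genes downstream of EGFR from these same arrays, so their array values are not independent evidence. It also reported real-time PCR of these genes after UNC50 knockdown and overexpression, and cyclin D1 protein by western blot. Those measurements are not part of the arrays. CCND1 (cyclin D1) stood at 466 under mock and 185 under shR-749 (-1.33), MMP7 (a matrix protease) at 267 and 121 (-1.14), GAST (gastrin) at 782 and 355 (-1.14), and AKR1B10 (an aldo-keto reductase) at 354 and 200 (-0.82). AKR1B10 was lower still with shR-467 (49.5) and shR-554 (48.7). The probes of MUC1 (a membrane mucin) disagreed, at 0.76 and -1.28 with shR-749, and the study lists the latter probe. EGF passed the background test under mock only, at a scaled signal of 29.3, too near background for a bound of 1.5-fold.

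**Figure D3:**
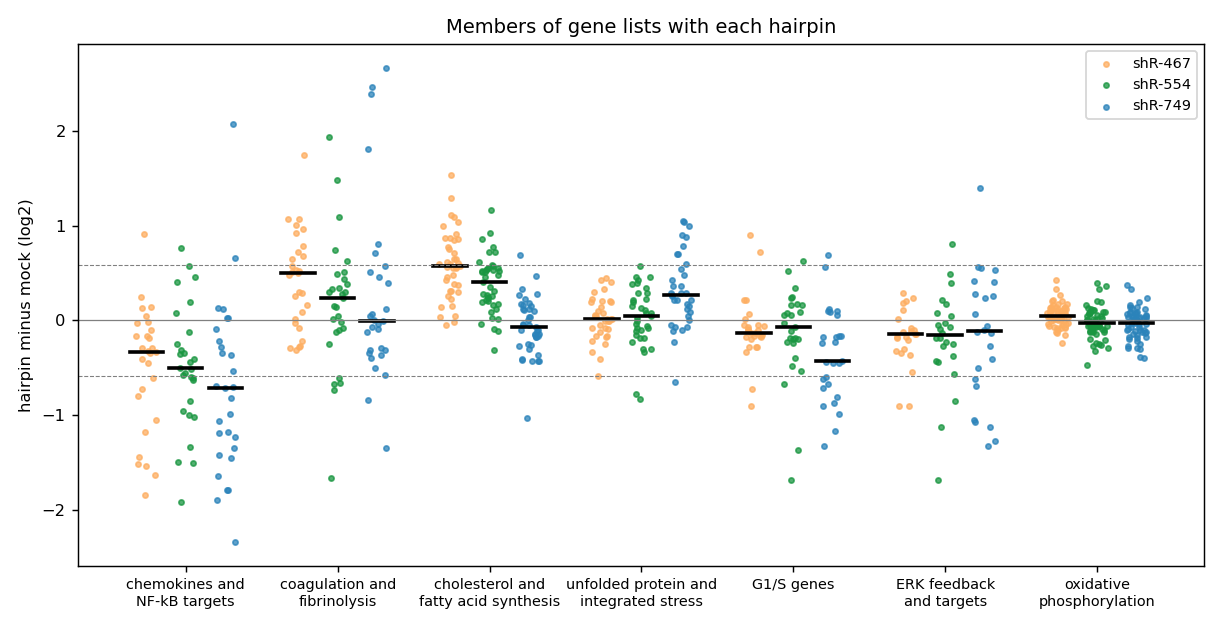
Difference from the mock array (log2, vertical) of each member of 7 gene lists for each of the 3 hairpins (coloured points), where black bars are medians and dashed lines mark 1.5-fold. With shR-749 the median of the cholesterol list was -0.07 beside 0.57 and 0.41, and that of the stress list 0.27 beside 0.01 and 0.05.

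Golgi genes were mostly within 1.5-fold of the mock, as genes at large were. Of 39 genes for UNC50, ARF proteins and Golgi coats, 2 (5.13%) were raised and 4 (10.3%) lowered, UNC50 included. The shares over all genes were 5.8% and 6.29%. COG5, a subunit of the tethering complex of the Golgi, had scaled signals of 2070, 878, 1580 and 2095, and so was low with shR-749 alone. SEC24A, a cargo receptor of the coat for export from the endoplasmic reticulum, stood at 3280, 1923, 3539 and 4810. ARL1, an ARF-like protein of the trans-Golgi, stood at 2280, 3714, 2674 and 2784. Of 10 ERBB receptors and ligands 3 (30%) were raised and 1 (10%) lowered. The raised ones were the ligands AREG (0.71), BTC (0.77) and HBEGF (0.98), of which AREG and BTC were lowered with shR-467 (-0.70 and -1.26). The lowered one was LRIG1, an inhibitor of these receptors, at 3526, 1995, 3695 and 2911.

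Among other liver genes the lists held members in both directions. Of 28 complement genes 4 were raised and 3 lowered. C8A, a chain of the membrane attack complex, stood at 2925, 838, 4684 and 1857, lowest with shR-749 and highest with shR-467. Of 53 cytochrome P450 and conjugation genes 7 (13.2%) were raised and 7 (13.2%) lowered. SULT2A1, which sulfates steroids, stood at 664, 2265, 1906 and 862, while UGT1A6, which conjugates phenols and whose transcript shares exons with the rest of the UGT1A family, stood at 7776, 2879, 5537 and 4740. Of 21 YAP and TEAD targets 1 (4.76%) was raised and 5 (23.8%) lowered, among the latter CTGF, a matricellular protein, at 576, 313, 402 and 351. Falls in this list were not particular to shR-749, as 5 members were lowered with shR-467 and 6 with shR-554.

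Housekeeping lists stayed close to the mock array. None of 56 oxidative phosphorylation genes passed 1.5-fold in either direction with shR-749, with differences from -0.40 to 0.37. Of 57 ribosomal protein genes 1 was lowered and 0 raised. The lowered gene was RPS12, at 121000 on the mock array, 61963 with shR-554 and 44998 with shR-749.

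The largest rises were mostly in genes that were dim on the mock array. Of the 12 largest, 9 had a mock signal under 4 times the lowest signal well above background, and 10 were read from 1 spot. NKPD1 stood first, at 22.9 under mock and 615 under shR-749 (4.75), and its signals with the other hairpins were 32.4 and 9.91. TRIM53, C11orf85, RIMS3, LMOD2 and OR2W5 came next, at 3.86, 3.77, 3.58, 3.44 and 3.42. GCGR, the glucagon receptor, was read from 2 spots and went from 143 to 1174 (3.04), with 221 for shR-467 and 79.5 for shR-554. TMEM151A went from 289 to 1903 (2.72) and was raised with both other hairpins.

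The position of a spot on the array moved with these rises. For each spot, the dim spots within 3 rows and 1 column (scaled signal under 100 on either array, at least 4 of them) were taken, and their median difference is called that of the surround. For 778 of 22782 genes (3.41%) a surround was at least 1.5-fold higher with shR-749. Among genes raised at least 2-fold it was 99 of 379 (26.1%), and among those raised at least 4-fold 39 of 63 (61.9%). For 6 of the 12 largest rises the surround was higher, by 3.38 for NKPD1, 5.29 for TRIM53, 2.94 for C11orf85, 3.14 for OR2W5, 1.71 for TMEM125 and 1.12 for RIMS3. The same was true of all 10 of the largest lower bounds on genes seen only with shR-749, among them SPINK5L3 (3.83) and STK31 (5.05), each read from 1 spot. Among the raised genes given by shR-749 alone and 2-fold from each other hairpin it was 31 of 89 (34.8%). Falls went with a lower surround to a smaller extent. It was at least 1.5-fold lower for 6.6% of all genes, 11.6% of those lowered, 13.8% of those lowered at least 2-fold and 21 of 121 (17.4%) of those lowered by all 3 hairpins. Among the lowered genes given by shR-749 alone it was 8.46%, and among those also 2-fold from each other hairpin 4 of 51 (7.84%).

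For the marker genes the surround differed by less than 1.5-fold, at -0.37 to -0.16 for FGB, 0.43 for UNC50 and 0.01 to 0.12 for DUSP6. It was 0.12 for UBE2M, and REG3A, REG1A, LCN2, CCL20, CXCL5, CXCL1 and LTB also stayed within 1.5-fold. It was past 1.5-fold for RIBC1 (-2.89) and LHX3 (1.01), which were read from 1 spot each. Among genes read from 2 spots at least 1 spot had such a surround for AFP (-0.81), MMP7 (-0.72), GCGR (-0.81), LILRB3 (-0.67), SULT2A1 (-0.80) and DUSP5 (0.68), and so did 1 probe of MBTPS1 (0.99) but not its brighter probe (0.16). Among probes printed in 10 spots the same held for CCND1 (-0.79), CCL2 (-0.82), CXCL12 (-0.76), SERPINC1 (1.16), F2 (-0.92) and TMEM9 (-0.85). When all spots with a surround past 1.5-fold were left out, a step chosen after seeing the data, 1168 genes were raised and 1321 lowered. The part of the array surface in these results was not tested.

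**Figure D4:**
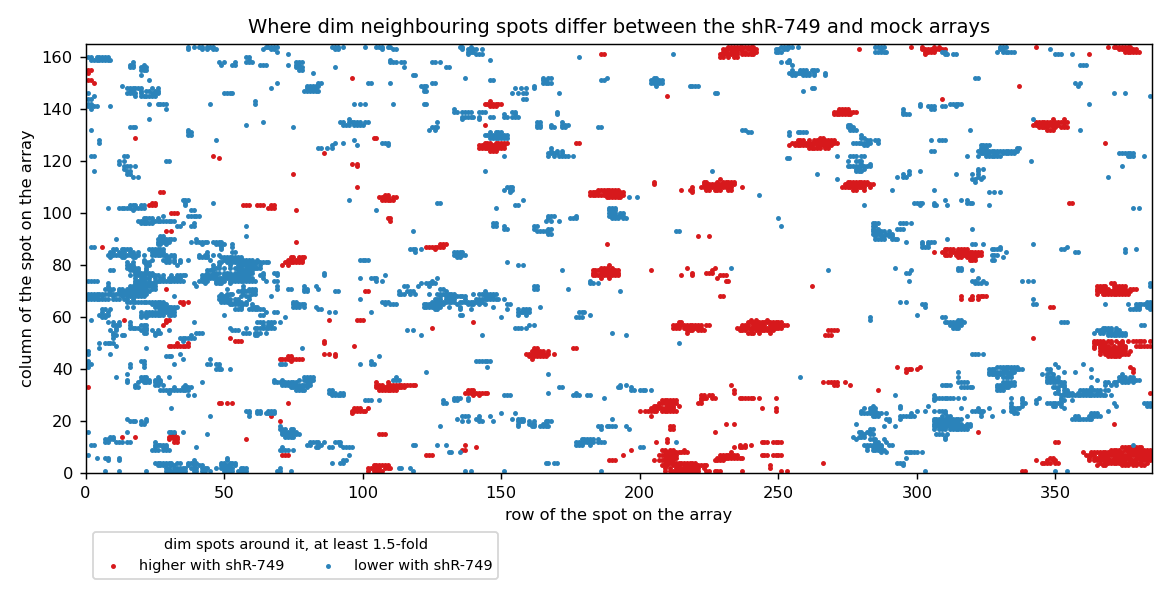
Row (horizontal) and column (vertical) on the array of each spot whose dim neighbours were at least 1.5-fold higher (red) or lower (blue) on the shR-749 array than on the mock array. The 1388 red and 2900 blue spots, of 58717 in all, lie in short streaks along the rows.

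Raised by shR-749 alone were 624 genes, and 477 where both signals had to be at least 4 times the lowest well above background. IFIT5, an interferon-induced RNA-binding protein, had scaled signals of 73.9 under the mock hairpin and 357 under shR-749, beside 56.2 (shR-467) and 64.1 (shR-554), and its surround differed by 0.27. Its difference of 2.27 was 1.59 under normexp. Other interferon-stimulated genes did not follow it, as 6 of 35 (17.1%, beside 6.29% of all genes) were lowered and IFIT5 was the 1 raised. BBOX1 (the last enzyme of carnitine synthesis), PARM1, LILRB3 and DLGAP3 differed by 2.19, 1.92, 1.81 and 1.72. GDAP1, LAMC3 and SNORA33 were also among the 8 largest, and each had a spot with a surround past 1.5-fold.

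Second probes set a limit on all of these counts. Of 178 raised genes with more than 1 kept probe, the next brightest probe passed 1.5-fold the same way for 61 and the other way for 4. Of 205 lowered genes it did so for 86 and 6.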

How the data were processed

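Total RNA of 4 Hep3B cultures was hybridised to Agilent 1-colour arrays, scanned and read with Feature Extraction 10.7.1.1, per the file headers, so the intensity values used here were already background-corrected by the authors' scanner software. The deposited table of log2 values had been quantile-normalized by the authors and served as an alternative. Signals of spots other than controls and outliers were averaged per probe, divided by each array's 75th percentile and put on the log2 scale. Probes well above background in over 0.5 of their spots on both arrays were kept, and a gene was read from its kept probe with the highest mean. A probe below background on 1 array was given as a bound, the brighter signal against the higher of the lowest signal well above background and the dim probe's own. With 1 array per group there was no test and no error between cultures, and the number of arrays limits the precision.

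Named are UNC50, FGB, DUSP6 and the genes the study names, the 12 largest rises and falls with a RefSeq name, the 8 largest each way with shR-749 alone, the 5 largest shared or opposed each way, and up to 3 members of a list each way with its defining members. Members and lists were chosen with earlier results of these data known. Names and promoters came from RefSeq (GRCh38.p14), and 14399 of 22908 genes had a name there. Probe coordinates are those of the array annotation (hg19). Alternatives were the scaling, the background correction (normexp, limma 3.58.1, offset 50), the authors' values, the outlier spots, the probe per gene, the filters, the fold and the hairpins used for sorting. The normexp values were not brought to a common scale between arrays. The 75th percentiles of the scanner's signals were 1120 (mock), 1130 (shR-749), 978 (shR-467) and 1390 (shR-554). The sorting was tested on simulated data. Python 3.11.15, numpy 2.4.6, pandas 2.3.3 and R 4.3.3 were used. A few genes are not reported here.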

Additional observations from a re-analysis of the deposited data

Results flagged for a closer look

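For the 7 genes given here shR-749 passed 1.5-fold one way and both other hairpins the other way. With 1 array per hairpin the difference between hairpins was not tested, and all 3 share the mock array. CFHR2, a complement factor H-related protein, differed from the mock by -0.620 with shR-749, beside 2.12 (shR-467) and 0.90 (shR-554). The dim spots around its 1 spot differed by -0.946. INHBB, a subunit of activin and inhibin, differed by -0.786, 1.03 and 0.94 for shR-749, shR-467 and shR-554. HLA-DPA1, a chain of an antigen-presenting molecule, differed by -0.704, 0.65 and 0.74 in that order. C10orf75 differed by -0.870, 0.67 and 0.60. The opposite pattern was seen for NRCAM, a neuronal adhesion protein, at 0.955, -0.60 and -0.74. It was also seen for MUC20, a membrane mucin, at 0.782, -0.74 and -0.91, and for KLRG1, a lymphocyte receptor, at 0.766, -0.65 and -0.85. The dim spots around 1 of the 2 spots differed by 0.717 for KLRG1 and by -0.697 for HLA-DPA1. Without such spots KLRG1 stood at 0.19, -0.33 and -0.57 and passed 1.5-fold with no hairpin, while HLA-DPA1 stood at -0.66, 0.67 and 0.79. Under normexp, where the arrays were not brought to a common scale, INHBB alone kept all 3 differences past 1.5-fold (-0.72, 0.84 and 1.20). There C10orf75 (-0.53), CFHR2 (-0.45), KLRG1 (0.54) and MUC20 (0.45) fell short with shR-749. HLA-DPA1 stood at 0.39 with shR-467 and NRCAM at -0.30 with shR-554. The unequal scale of those arrays enters these values, so they alone do not show whether HLA-DPA1 and NRCAM would fall short. With the mean over a gene's kept probes, on the main scale, both fell short with shR-467, at 0.51 (HLA-DPA1) and -0.41 (NRCAM). C10orf75 fell short with shR-554 under quantile normalization, at 0.56.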

How the results depend on the processing

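The differences of UNC50, FGB and DUSP6 kept their direction and stayed past 1.5-fold in all 21 recomputed values, and 56 of 82 recomputed counts stayed within 1.5 times. The 1329 raised and 1440 lowered genes became 706 and 643 under normexp without scaling between arrays. They were 796 and 772 where both signals had to be 4 times the lowest well above background. At 2-fold they were 380 and 358, and for genes with a RefSeq name 803 and 861. The genes shared by all 3 hairpins (120 raised, 121 lowered) became 53 and 53 under normexp and 27 and 32 at 2-fold, with 76 raised for RefSeq names and 68 lowered at the brighter filter. Sorted by shR-554 only they were 311 and 518, and by shR-467 only 279 and 307. Those with shR-749 alone (624 raised, 680 lowered) became 325 and 365 under normexp, 207 and 189 at 2-fold, 89 and 51 where 2-fold from each other hairpin was asked, 402 raised for RefSeq names and 1047 lowered when sorted by shR-467 only. Fewer genes are compared or a stricter fold is asked in all but the normexp and sorting settings. The cause of the drop under normexp was not tested. As those arrays were not on a common scale, the sorted counts there also hold the unequal scale of shR-467 and shR-554. Of 78 recomputed list medians 75 stayed within 0.206, and none past 1.5-fold changed sign, though medians near 0 did, such as that of the oxidative phosphorylation genes (-0.03 to 0.01 under quantile normalization), while under normexp the REG family moved to -3.38, the Wnt list to -0.09 and the fibroblast markers to 0.50. Leaving out spots by their surround, chosen after seeing the data, kept all counts within 1.5 times. No paired analysis was possible because each group has 1 array. Dim genes limit the counts, since 9 of the 12 largest rises start near background.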
